A study of Homo sapiens with 6 samples.

Results

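RAB GTPase genes were read from RNA-seq of HCT-116 cells, an established human colorectal carcinoma cell line. A row of the deposited table was taken as a RAB locus by its gene names. One of them had to be RAB followed by a number and, where present, a letter and a further digit. The rule uses no measured value, but it was chosen with earlier results of these data known. The rule found 63 of the 27918 rows, of which 60 stood for RAB genes and 3 for pseudogenes (RAB43P1, RAB28P5 and RAB1C). RAB32, RAB3C and RAB45 were on the list of roles, but the rule found no row under these symbols, so none is counted among the RAB loci. In 6 of the 63 rows the RAB gene shared its row with neighboring genes (RAB5C, RAB8A, RAB43, RAB4B, RAB24 and RAB3D), so the value there belongs to the joined locus.

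The cells received an antisense locked nucleic acid GapmeR against the long noncoding RNA CASC9 (GapC9) or a negative control GapmeR (GapNC), both at 10 nM with Lipofectamine, and 3 libraries were made for each group. A GapmeR forms a hybrid with its target, and RNase H cleaves the RNA strand of that hybrid. The comparison asked how gene expression differs between cells given the CASC9 GapmeR and cells given the control. All 6 libraries came from the parental line, with 1 GapmeR sequence against CASC9, and the sources do not say whether the 3 libraries of a group were separate cultures, so the p-values measure only the spread between these libraries.

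RAB proteins are small GTPases of the RAS superfamily that mark membrane compartments and steer vesicle traffic between them. A RAB is active when bound to GTP. Exchange factors load GTP, GTPase-activating proteins speed its hydrolysis, the escort protein and the prenyltransferase attach the lipid tail, GDI extracts the GDP-bound form from membranes, and effectors such as tethers, motors and sorting adaptors bind the active form. RAB1 and RAB2 work between the endoplasmic reticulum and the Golgi, RAB5 on early endosomes, RAB7 on late endosomes and lysosomes, RAB11 on recycling endosomes, and RAB3 and RAB27 in regulated secretion. In epithelia such as that of the colon, RAB8, RAB10, RAB11, RAB13 and RAB25 serve polarized delivery to the apical or lateral surface.

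The RAB loci past a threshold hold a short stretch of coding sequence that most RAB loci hold, so it does not set them apart. These 21 bases, read from the GENCODE transcripts on GRCh38, encode the conserved stretch of the GTP-binding pocket that starts with tryptophan and aspartate, known as G3. They are printed for the 4 loci that passed a threshold and for the nearest relatives of RAB11A, RAB11B and RAB25. Capitals mark the bases that differ from RAB11A.
RAB11A: tgggacacagcagggcaagag
RAB11B: tgggacacCgcTggCcaGgag
RAB25: tgggacacagcTggCcTGgag
RAB3A: tgggacacagcagggcaagag
RAB30: tgggacacagcaggTcaagag
RAB36: tgggacacagcTgggcaGgag

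RAB3A had 0 differences from RAB11A over these 21 bases, RAB30 had 1, RAB36 had 2, and RAB11B and RAB25 had 4 each. The stretch lies in exon 2 of 5 of RAB11A (chr15:65877484-65877504, plus strand), of RAB11B (chr19:8400015-8400035, plus strand) and of RAB25 (chr1:156066063-156066083, plus strand). It lies in exon 5 of 6 of RAB30 (chr11:82987741-82987761, minus strand) and in exon 6 of 11 of RAB36 (chr22:23155969-23155989, plus strand). In RAB3A, on the minus strand, an intron splits it, with the first bases at chr19:18202513-18202515 and the rest at chr19:18200428-18200445. Of the 63 RAB loci, 50 held such a stretch, in 44 distinct sequences. Only a narrow pattern of residues was searched for, so the 13 without a match need not lack G3. The differences do not follow kinship, since RAB11B and RAB25, the nearest relatives of RAB11A, had the most. Identity over so few bases does not carry over to whole transcripts. Of the 50-base windows of its longest listed transcript, RAB11A shared 0.266% with another annotated gene, RAB36 1.96%, and RAB3A and RAB30 0%. Sharing was largest for RAB43P1 (91.7%), RAB6C (55.8%), RAB43 (41.4%) and RAB6A (21.6%), whose values are therefore uncertain. The gene that shared most windows was RAB43 for RAB43P1 (91.7%) and RAB6D for RAB6C (47.4%). It was AC092368.3 for RAB43 (30.2%) and RAB6C for RAB6A (15.3%). Reads can be split between such genes.

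FPKM, the unit of the table, is fragments per kilobase of transcript and per M (mega) of mapped fragments, so levels can be compared between loci. Taking the most frequent increment among low values as 1 fragment gives depths of 23.0 to 24.6 M (mega) per library, and without counts no counting error could be given. CASC9 itself, the target, was listed at 0, 0.0108 and 0 FPKM in the GapNC libraries and at 0.0528, 0.107 and 0 FPKM in the libraries labelled GapC9. It was not lower in the latter (exact permutation test, two-sided, p = 0.4, where 3 libraries against 3 allow no p below 0.1), so the groups are named by their labels throughout and every direction below rests on those labels. Of 8 colorectal epithelial markers 6 averaged at least 1 FPKM, with EPCAM at 62.3 to 88.4 FPKM, and CLDN3 was listed at 0 in 5 of the 6 libraries. Of 8 markers of blood, endothelial and fibroblast cells 6 had a row, of which 4 were under 0.1 FPKM in every library, COL1A1 was at 1.06 to 1.54 FPKM, and CD68 shared its row with EIF4A1, SENP3, TNFSF12 and others. Their summed level was 51.4 to 57.4 FPKM in the GapNC libraries and 50.9 to 54.7 FPKM in those labelled GapC9, of which the joined CD68 row made up 49.8 to 55.7 FPKM, so the sum does not measure those cells. One library stood apart by base composition, over the loci of known GC content that averaged at least 1 FPKM. There the Spearman correlation of GC content with a library's deviation from the mean was 0.62 in GapNC 1, against −0.38 to 0.029 in the other 5.

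Most of the RAB RNA came from a few loci. Averaged over the 6 libraries, the 63 RAB loci summed to 537.3 FPKM, of which the top 3 (RAB1B, RAB7A and RAB1A) held 34.9% and the top 12 held 69.1%. At least 10 FPKM was reached by 17 loci, 28 lay between 1 and 10 FPKM, 9 between 0.1 and 1 FPKM, and 9 below 0.1 FPKM. The 9 lowest were RAB7B, RAB6C, RAB33A, RAB28P5, RAB40A, RAB1C, RAB39B, RAB44 and RAB9B, and they fell under the minimum mean of 0.1 FPKM for testing, which left 54 RAB loci tested. RAB28P5 was listed above 0 in 1 library only, at 0.314 FPKM in GapC9 2, and RAB9B in 1 library only, at 0.0117 FPKM in GapNC 1. The summed RAB level was 526, 561 and 601 FPKM in the GapNC libraries and 569, 426 and 541 FPKM in those labelled GapC9, and the groups overlapped.

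**Figure D1:**
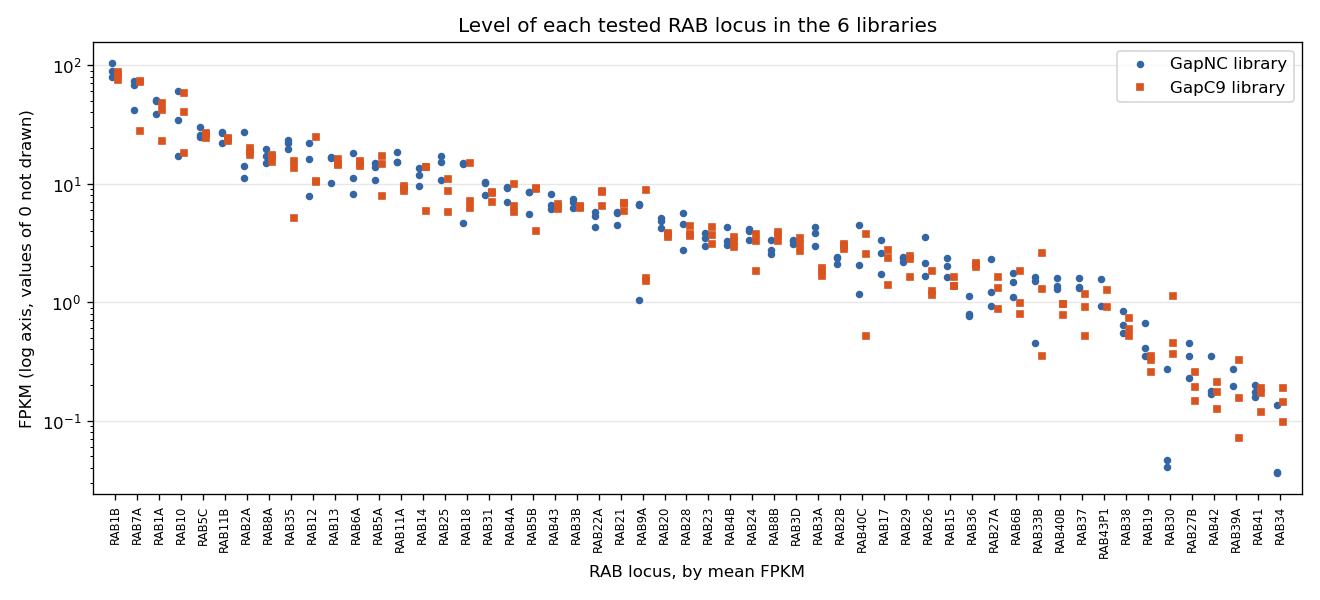
FPKM of each of the 54 tested RAB loci in each library, on a log axis, ordered by the mean over the 6 libraries. Circles are GapNC and squares are libraries labelled GapC9, and values of 0 (RAB43P1 and RAB39A) are not drawn. The levels run from about 86.3 FPKM for RAB1B to 0.106 FPKM for RAB34, and at most loci the circles and squares overlap.

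Few RAB loci differed between the groups. At a limma adjusted p under 0.05, RAB36 was higher and RAB11A and RAB3A were lower in the libraries labelled GapC9. That is 1 of 54 higher, where 1.89% of all 16028 loci tested were called higher, and 2 of 54 lower, where 5.1% were called lower. By the second rule, an unadjusted p under 0.05 together with group means that differ at least 2-fold (a ratio of 2 or more, or of 0.5 or less), RAB36 and RAB30 were higher (background 2.1%) and RAB3A was lower (background 4.32%). An unadjusted p under 0.05 was reached by 4 RAB loci higher (7.41% of those tested, against 9.09% of all loci) and 7 lower (12.96% against 16.8%). The groups did not overlap at 5 RAB loci higher (9.26% against 12.6%) and 7 lower (12.96% against 21.6%). As shares of the RAB loci tested, the adjusted calls were 1.85% higher (against 1.89%) and 3.70% lower (against 5.1%). The ratio calls were 3.70% higher (against 2.1%) and 1.85% lower (against 4.32%). Each count rests on 1 to 7 RAB loci, and the same loci recur between the counts. They are therefore not separate evidence that the family differs from all loci. In bulk RNA, fewer cells that express a gene and less RNA of it per cell cannot be told apart.

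The fitted log2 fold changes of the 54 loci had a median of −0.12, beside −0.076 for all loci tested, with 14 above 0 and 40 below. Of all loci tested 43.6% lay above 0. Scaling the libraries to equal medians moved the median of all loci to 0.050 and that of the RAB loci to 0.0053. Then 28 lay above 0 and 26 below (54.3% of all loci above 0), so the lean of the family to lower values did not hold under that scaling. More lay below than above under quantile normalization (20 above and 34 below, with 50.3% of all loci above 0). The same was so after a GC correction within each library (22 above and 32 below, with 52.1% of all loci above 0). By role the median was 0.048 for the 15 tested loci of the endoplasmic reticulum and Golgi, −0.083 for the 8 of early endosomes, −0.11 for the 13 of recycling and polarized transport, −0.22 for the 6 of late endosomes and lysosome-related organelles and −0.56 for the 7 of regulated secretion. Under median scaling the early endosome and recycling medians turned to 0.058 and 0.029, while those of late endosomes and secretion stayed below 0, at −0.10 and −0.46.

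**Figure D2:**
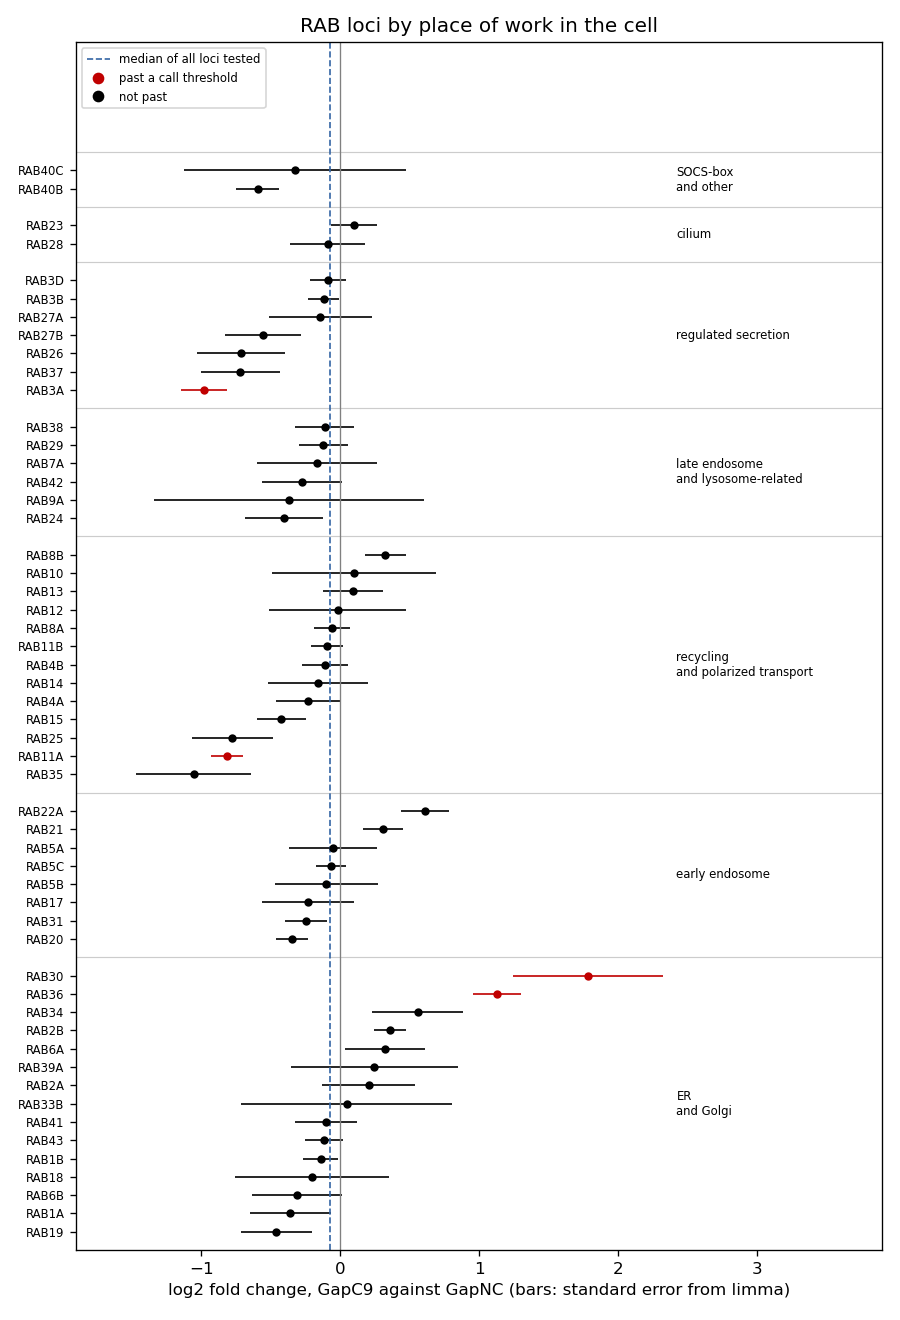
Fitted log2 fold change of each tested RAB gene locus, GapC9 against GapNC, with limma's standard error as bars, grouped by role (the pseudogene RAB43P1 is left out). The dashed line is the median of all loci tested, −0.076, and red marks RAB30, RAB36, RAB3A and RAB11A, which passed a threshold. All 7 loci of regulated secretion lie to the left of 0, while the loci of the endoplasmic reticulum and Golgi lie on both sides.

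Among the RABs of recycling and polarized transport, RAB11A fell. RAB11A (MSTRG.6044, chr15:65726054-65891991, plus strand) brings cargo back from recycling endosomes to the cell surface. It was at 15.3, 15.2 and 18.5 FPKM in the GapNC libraries against 9.25, 8.73 and 9.63 FPKM in the libraries labelled GapC9. All 3 GapNC libraries lay above all 3 of the other group, and the GapC9 values stayed within 1 FPKM of each other. The means were 16.3 ± 1.86 and 9.20 ± 0.450 FPKM (SD, n = 3 each), a ratio of 0.563, and the log2 fold change was −0.82 with a standard error of 0.12 and a limma adjusted p of 0.0241. The call was kept without GapNC 1 (adjusted p = 0.0357) and was lost without any 1 of the other 5 libraries. There the adjusted p was 0.0601 without GapNC 3, 0.0749 without GapNC 2, 0.0814 without GapC9 1, 0.0845 without GapC9 3 and 0.105 without GapC9 2. The log2 fold changes were −0.87 to −0.72 throughout. With same-numbered libraries treated as pairs (a replicate block), the adjusted p was 0.0608.

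The closest relatives of RAB11A did not pass a threshold. RAB11B, which also works on recycling endosomes, was at 21.9, 27.4 and 26.5 FPKM in GapNC and 24.1, 22.7 and 23.9 FPKM in the libraries labelled GapC9. Its groups overlapped, and the log2 fold change was −0.09 with a standard error of 0.12 (adjusted p = 0.647). RAB25, the epithelial member, was at 10.6, 17.1 and 15.2 FPKM against 8.59, 11 and 5.73 FPKM. GapC9 2 lay above GapNC 1, so the RAB25 groups overlapped, with a log2 fold change of −0.78, a standard error of 0.29, an unadjusted p of 0.0364 and an adjusted p of 0.164. RAB25 is described because its unadjusted p was under 0.05, a choice made after its values were seen, as were RAB22A, RAB20, RAB2B and RAB37.

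RAB35, which recycles cargo from endosomes and acts at the end of cell division, had the largest fitted difference among the lower RAB loci but also a wide spread. It was at 23.4, 19.7 and 21.8 FPKM in GapNC and at 5.17, 13.5 and 15.7 FPKM in the libraries labelled GapC9. The groups did not overlap, but GapC9 1 was far below the other 2 of its group. The log2 fold change was −1.06 with a standard error of 0.42 (unadjusted p = 0.0443, adjusted p = 0.181), and without GapC9 1 it was −0.56 (adjusted p = 0.116). RAB35 passed the ratio rule without GapC9 2 (ratio 0.481, unadjusted p = 0.0462) and without GapC9 3 (ratio 0.432, unadjusted p = 0.0244). An antisense gene, AC004812.2, overlaps exons of RAB35, and the use of strand in counting was not given in the sources used here.

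The abundant RABs of polarized delivery overlapped between the groups. RAB8A, which carries vesicles from the Golgi to the surface, was at 19.7, 17.2 and 15 FPKM in GapNC and 17.5, 15.3 and 16.8 FPKM in GapC9, in a row joined with HSH2D. RAB13, of tight junction traffic, was at 16.8, 16.3 and 10.1 FPKM against 16.2, 14.6 and 14.2 FPKM. In both the GapC9 libraries lay inside the range of the GapNC libraries, and the log2 fold changes were −0.06 (standard error 0.13, adjusted p = 0.808) and 0.09 (standard error 0.21, adjusted p = 0.825). RAB10, of basolateral and insulin-responsive delivery, was at 34.1, 17.0 and 59.9 FPKM against 58.7, 18.3 and 39.8 FPKM, and RAB12, of endosome sorting, at 16.1, 7.90 and 21.9 FPKM against 24.6, 10.5 and 10.4 FPKM. Both varied over 3-fold between the lowest and the highest library, and their groups overlapped, with log2 fold changes of 0.10 (standard error 0.59, adjusted p = 0.938) and −0.02 (standard error 0.49, adjusted p = 0.988). The remaining loci of this role, RAB14, RAB4A, RAB4B, RAB8B and RAB15, had log2 fold changes from −0.42 (RAB15) to 0.32 (RAB8B) and adjusted p-values of 0.194 or more.

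**Figure D3:**
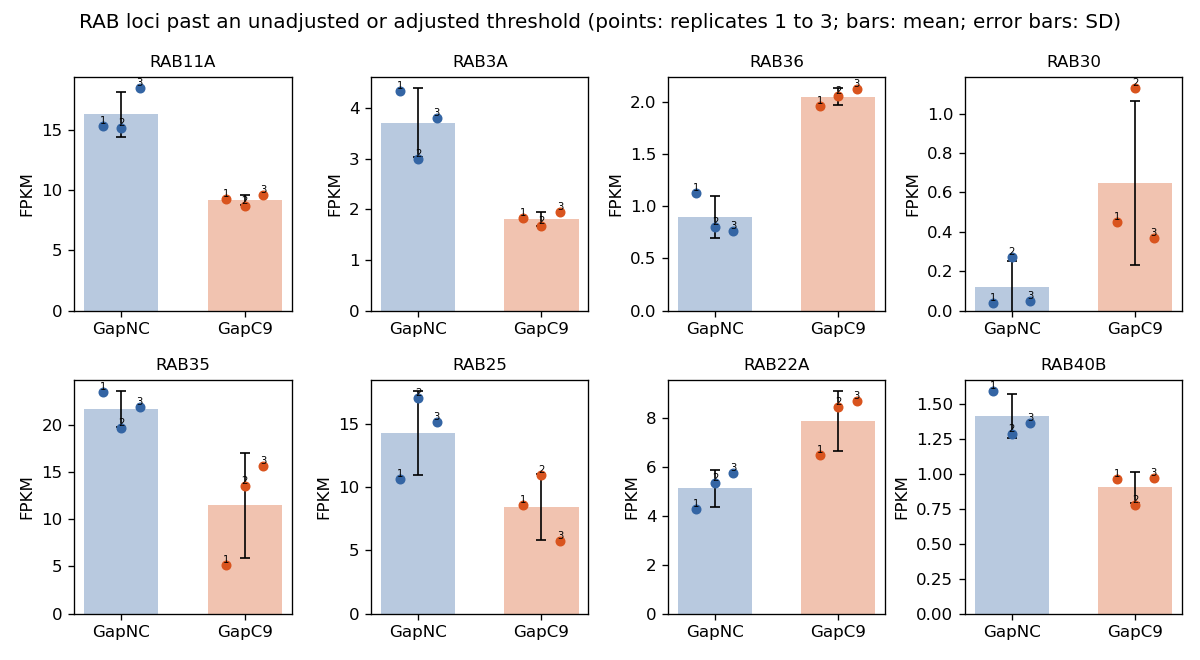
FPKM of 8 RAB loci by library, with replicates 1 to 3 as points, group means as bars and SD as error bars (cut at 0). The upper row holds the 4 loci past a threshold, where the groups do not overlap, and the lower row holds RAB35, RAB25, RAB22A and RAB40B, with an unadjusted p under 0.05 only.

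Among the RABs of regulated secretion, RAB3A fell and no locus rose. RAB3A (MSTRG.9577, chr19:18196784-18204074, minus strand) governs vesicle exocytosis and is best known from nerve terminals and endocrine granules. Its levels were 4.34, 3.0 and 3.82 FPKM in GapNC and 1.83, 1.67 and 1.94 FPKM in the libraries labelled GapC9. Each GapC9 value was below each GapNC value. With means of 3.72 ± 0.677 and 1.81 ± 0.138 FPKM the ratio was 0.488, and the log2 fold change was −0.98 with a standard error of 0.17 (limma adjusted p = 0.0314). That adjusted p was over 0.05 with any 1 library left out, at 0.0540 without GapNC 1, 0.0662 without GapNC 2, 0.0858 without GapNC 3, 0.0943 without GapC9 1, 0.123 without GapC9 2 and 0.104 without GapC9 3. It was 0.0538 with no filter on low loci and 0.0610 with the replicate block. The ratio went over 0.5 without GapNC 1 (0.532) and without GapC9 2 (0.507). After a GC correction within each library RAB3A, whose transcripts hold 60.0% GC, had a log2 fold change of −0.73 (adjusted p = 0.0252), and under median scaling −0.85 (adjusted p = 0.0430). Both ended the call by ratio, so that by ratio 2 RAB loci were higher and 0 lower under median scaling, against 2 and 1. Exons of MPV17L2 lie antisense to RAB3A, and reads of the 2 genes cannot be told apart without strand.

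The other secretory RABs lay below 0 without passing a threshold. RAB3B was at 6.18, 7.01 and 7.47 FPKM in GapNC and 6.18, 6.42 and 6.32 FPKM in the libraries labelled GapC9, the narrowest spread of any RAB locus of at least 1 FPKM (1.21-fold from lowest to highest), with a log2 fold change of −0.12 (standard error 0.11, adjusted p = 0.534). RAB3D, in a row joined with TMEM205 and AC011472.2, was at 3.30, 3.37 and 3.12 FPKM against 3.08, 2.69 and 3.48 FPKM, and its log2 fold change was −0.09 (standard error 0.13, adjusted p = 0.718). Both sets of libraries overlapped, and both differences turned above 0 under median scaling (0.020 and 0.053). RAB37, of mast cell and insulin granules, was at 1.61, 1.34 and 1.32 FPKM against 0.908, 0.515 and 1.16 FPKM. Its groups did not overlap, and its log2 fold change was −0.72 with a standard error of 0.28 (unadjusted p = 0.0443, adjusted p = 0.181). RAB26, RAB27A and RAB27B overlapped between the groups, with log2 fold changes of −0.71, −0.14 and −0.56 and adjusted p-values of 0.222, 0.844 and 0.260.

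RAB36 rose among the RABs of the endoplasmic reticulum and Golgi. RAB36 (ENSG00000100228, chr22:23145326-23164350, plus strand) is a Golgi-associated RAB with a role in lysosome positioning. It was at 1.13, 0.796 and 0.763 FPKM in GapNC and at 1.96, 2.06 and 2.12 FPKM in the libraries labelled GapC9. The GapC9 libraries lay close together and above all 3 GapNC libraries, of which GapNC 1 was the highest. The means were 0.895 ± 0.201 and 2.05 ± 0.0801 FPKM, a ratio of 2.29, with a log2 fold change of 1.13, a standard error of 0.17 and a limma adjusted p of 0.0271. Without GapNC 1 the adjusted p was 0.0245. It was over 0.05 without GapNC 3 (0.0743), GapC9 1 (0.0850), GapNC 2 (0.0926), GapC9 3 (0.104) and GapC9 2 (0.110), while the ratio stayed at 2.13 or more in all 6. After the GC correction the log2 fold change was 1.32 (adjusted p = 0.00526), and with a pseudocount of 1 it was 0.69 (adjusted p = 0.0260). With the replicate block the adjusted p was 0.0656.

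RAB30 was higher by the ratio rule only. RAB30 (MSTRG.3412, chr11:82973133-83071923, minus strand) is a Golgi RAB that also takes part in autophagy of bacteria. It was at 0.0404, 0.272 and 0.0470 FPKM in GapNC and 0.450, 1.13 and 0.367 FPKM in the libraries labelled GapC9. The groups did not overlap, and replicate 2 was the highest library in both. Its mean of 0.648 ± 0.417 FPKM was 5.41 times that of GapNC, 0.120 ± 0.132 FPKM, at levels where single fragments weigh heavily. The log2 fold change was 1.79 with a standard error of 0.54, an unadjusted p of 0.0161 and an adjusted p of 0.107. With the replicate block the standard error was 0.19 and the limma adjusted p was 0.0608. With a pseudocount of 1 or 0.01 in place of 0.1 the log2 fold change was 0.54 or 2.64. The ratio without GapNC 2 was 14.8 and without GapC9 2 was 3.41, and the unadjusted p went over 0.05 without GapNC 1 (0.0610) and without GapNC 3 (0.0559).

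The housekeeping RABs of the early secretory pathway did not pass a threshold. RAB1B, the most abundant RAB locus, works in transport from the endoplasmic reticulum to the Golgi and was at 104, 88.8 and 79.0 FPKM in GapNC and 87.1, 75.6 and 82.8 FPKM in GapC9. Its paralog RAB1A was at 38.9, 49.5 and 50.6 FPKM against 42.1, 23.0 and 47.6 FPKM. Both overlapped between the groups, with GapC9 2 the lowest library of each, and the log2 fold changes were −0.14 (standard error 0.13, adjusted p = 0.526) and −0.36 (standard error 0.29, adjusted p = 0.486). RAB2A, of the intermediate compartment, was at 11.1, 14.0 and 27.5 FPKM against 17.4, 18.6 and 20.2 FPKM. RAB6A, of retrograde Golgi transport, was at 11.1, 18.2 and 8.11 FPKM against 14.0, 15 and 15.4 FPKM. In both the GapC9 libraries lay between the GapNC libraries, which varied more, and the log2 fold changes were 0.20 (standard error 0.33, adjusted p = 0.738) and 0.32 (standard error 0.29, adjusted p = 0.526).

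RAB2B, the lower-expressed relative of RAB2A, was at 2.40, 2.09 and 2.36 FPKM in GapNC and 2.79, 3.10 and 2.98 FPKM in the libraries labelled GapC9. The groups did not overlap, and the log2 fold change was 0.36 with a standard error of 0.12 (unadjusted p = 0.0206, adjusted p = 0.120). TOX4 lies antisense to exons of RAB2B. RAB39A was listed at 0 in 1 library, with 0.273, 0 and 0.197 FPKM in GapNC and 0.0709, 0.155 and 0.323 FPKM in GapC9, and its log2 fold change of 0.25 had a standard error of 0.60 (adjusted p = 0.834). The other 7 tested loci of this role, RAB18, RAB43, RAB6B, RAB33B, RAB19, RAB41 and RAB34, had log2 fold changes from −0.46 (RAB19) to 0.56 (RAB34) and adjusted p-values of 0.312 or more, and of these only RAB19 had groups that did not overlap.

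No RAB of the early endosome passed a threshold. RAB5C, in a row joined with KAT2A and AC099811.2, was at 30.2, 25.0 and 25.8 FPKM in GapNC and 26.6, 24.2 and 26.2 FPKM in GapC9. RAB5A was at 10.6, 14.8 and 13.9 FPKM against 14.8, 7.80 and 17.1 FPKM. These regulators of early endosome fusion overlapped between the groups, with log2 fold changes of −0.07 (standard error 0.11, adjusted p = 0.741) and −0.05 (standard error 0.32, adjusted p = 0.942). RAB22A, of early endosome sorting, was at 4.28, 5.35 and 5.74 FPKM in GapNC and at 6.47, 8.46 and 8.68 FPKM in the libraries labelled GapC9. Every GapC9 library lay above every GapNC library, and the log2 fold change was 0.61 with a standard error of 0.17 (unadjusted p = 0.0128, adjusted p = 0.0942). RAB20, of phagosome maturation, was at 5.12, 4.23 and 4.85 FPKM against 3.67, 3.86 and 3.56 FPKM without overlap, with a log2 fold change of −0.35, a standard error of 0.12, an unadjusted p of 0.0254 and an adjusted p of 0.135. RAB21, of integrin traffic, did not overlap either (GapC9 higher), with a log2 fold change of 0.31 and an adjusted p of 0.244, and RAB5B, RAB31 and RAB17 overlapped.

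The RABs of late endosomes and lysosome-related organelles held 1 of the most abundant loci and 1 of the most variable. RAB7A, which directs late endosomes to lysosomes, was at 42.2, 72.9 and 68.2 FPKM in GapNC and 71.5, 27.8 and 74.0 FPKM in GapC9. One library of each group, GapNC 1 and GapC9 2, lay far below the other 2. Its log2 fold change was −0.17 with a standard error of 0.43 (adjusted p = 0.841). RAB9A, which returns receptors from late endosomes to the Golgi, was at 1.03, 6.75 and 6.63 FPKM in GapNC and 8.83, 1.49 and 1.61 FPKM in GapC9. Libraries at 1.03 to 1.61 FPKM numbered 3 and so did those at 6.63 to 8.83 FPKM, with both groups in each set, and the log2 fold change of −0.37 had a standard error of 0.97 (adjusted p = 0.847). RAB24, RAB29, RAB38 and RAB42 had log2 fold changes from −0.40 (RAB24) to −0.11 (RAB38) and adjusted p-values of 0.409 or more. All 6 tested loci of this role lay below 0, of which 2 turned above 0 under median scaling.

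RAB23, which restrains Hedgehog signaling at the cilium, was at 3.0, 3.83 and 3.5 FPKM in GapNC and 3.12, 3.72 and 4.31 FPKM in GapC9 (log2 fold change 0.10, standard error 0.16, adjusted p = 0.741). RAB28, of the photoreceptor cilium, was at 4.59, 5.64 and 2.76 FPKM against 3.59, 4.35 and 3.77 FPKM (log2 fold change −0.09, standard error 0.27, adjusted p = 0.863). Both overlapped between the groups. RAB40B and RAB40C carry a SOCS box, through which they join ubiquitin ligases. RAB40B was at 1.59, 1.28 and 1.36 FPKM in GapNC and 0.962, 0.775 and 0.968 FPKM in the libraries labelled GapC9. Its groups did not overlap, and the log2 fold change was −0.59 with a standard error of 0.15 (unadjusted p = 0.00835, adjusted p = 0.0756). RAB40C was at 2.05, 1.17 and 4.48 FPKM against 3.79, 2.55 and 0.517 FPKM, with both groups spread over the range and a log2 fold change of −0.33 (standard error 0.80, adjusted p = 0.833). The pseudogene RAB43P1 was at 0, 1.57 and 0.924 FPKM against 1.26, 0 and 0.909 FPKM, with a log2 fold change of −0.11 and a standard error of 1.42 (adjusted p = 0.974).

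Many RAB loci varied between libraries of the same group. For each locus of at least 1 FPKM, the ratio of the highest to the lowest library was taken within each group and the larger of the 2 ratios was kept. Its median was 1.69 over the 45 RAB loci and 1.43 over all such loci (10229, less 196 with a library at 0). It was over 2 at 20 of the 45 RAB loci (44.4%) and at 17.6% of all. Over all 6 libraries together the highest-to-lowest ratio was 8.66 for RAB40C, 8.54 for RAB9A, 7.38 for RAB33B and 4.53 for RAB35. It was 3.52 for RAB10, 3.20 for RAB18, 3.13 for RAB37 and 3.11 for RAB12. Of these, RAB35 and RAB37 had groups that did not overlap. RAB33B, of the Golgi and autophagosomes, was at 1.5, 1.64 and 0.452 FPKM in GapNC and 1.28, 0.353 and 2.61 FPKM in GapC9, and RAB18, of the endoplasmic reticulum and lipid droplets, at 4.63, 14.7 and 14.8 FPKM against 14.8, 6.27 and 7.13 FPKM. The low libraries were not the same at each locus: RAB9A and RAB18 were low in GapNC 1, GapC9 2 and GapC9 3, RAB10 in GapNC 2 and GapC9 2, and RAB40C in GapNC 2 and GapC9 3. These loci were chosen after their values were seen, and the part that depth, the assembly of transcripts or base composition has in this spread was not tested.

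**Figure D4:**
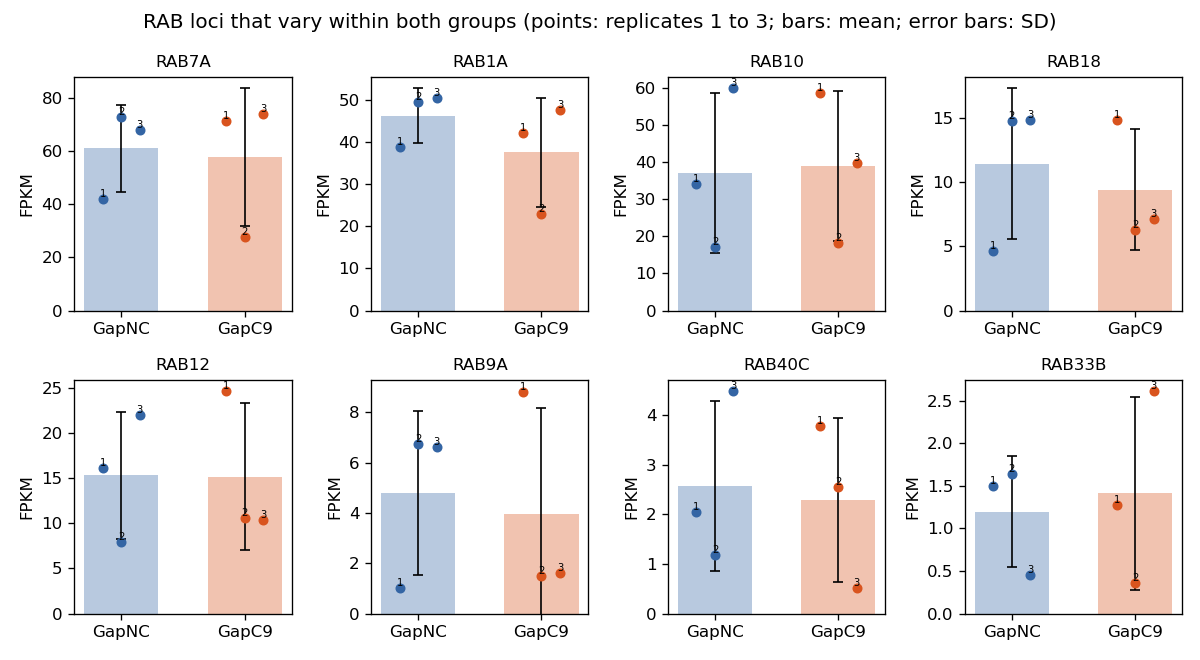
FPKM of 8 RAB loci that vary within at least 1 group, with replicates 1 to 3 as points, group means as bars and SD as error bars (cut at 0). RAB1A varied mainly within GapC9, at 23.0 to 47.6 FPKM against 38.9 to 50.6 FPKM in GapNC. RAB9A runs from 1.03 to 8.83 FPKM with libraries of both groups at each end, and at none of the 8 loci do the groups separate.

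The list of loci for the proteins that load, stop, carry and read RABs was drawn up with earlier results of these data known. Its shares are therefore not independent of these data. Of its 156 loci, 147 were tested, and most of those called were lower. At an adjusted p under 0.05, 16 were lower (10.88%, against 5.1% of all loci tested) and 2 were higher (1.36% against 1.89%) in the libraries labelled GapC9. By ratio and unadjusted p, 9 were lower (6.12% against 4.32%) and 1 was higher (0.680% against 2.1%). The groups did not overlap at 55 loci lower (37.4% against 21.6%) and at 16 higher (10.88% against 12.6%), and the median log2 fold change was −0.16 beside −0.076. Under median scaling the adjusted calls were 10 lower and 3 higher and the ratio calls 4 lower and 1 higher. The GC correction gave 18 lower and 4 higher at an adjusted p under 0.05 and 2 lower by ratio, and with no filter 4 were lower and 1 higher at an adjusted p under 0.05. With 1 library left out, the number lower at an adjusted p under 0.05 ran from 0 to 10. It was 0 without GapNC 2 or any 1 of the libraries labelled GapC9, and 10 without GapNC 1. With same-numbered libraries treated as pairs (a replicate block), 0 were lower and 0 higher. The shares of all loci called under these alternatives are not given. Whether the excess of lower calls remained under them therefore cannot be read from these counts.

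Exchange factors held 6 adjusted calls of 49 tested, all lower (12.2%, against 5.1% of all loci tested). DENND5B, a DENN domain exchange factor, was at 5.20, 5.79 and 6.46 FPKM in GapNC and 2.55, 2.47 and 2.77 FPKM in the libraries labelled GapC9. The groups stood well apart, with a log2 fold change of −1.13, a standard error of 0.12 and an adjusted p of 0.0166. TRAPPC6A, a subunit of the TRAPP complex that activates RAB1, was at 2.99, 2.49 and 2.31 FPKM against 0.670, 1.29 and 0.731 FPKM, with a log2 fold change of −1.48 (standard error 0.26, adjusted p = 0.0332). Its paralog TRAPPC6B was at 1.59, 2.14 and 3.30 FPKM against 3.0, 8.07 and 8.05 FPKM. GapC9 1 lay below GapNC 3, so the TRAPPC6B groups overlapped, and its log2 fold change of 1.33 (standard error 0.46) passed the ratio rule but had an adjusted p of 0.139. TRAPPC12, another TRAPP subunit, was at 2.70, 2.11 and 1.90 FPKM against 1.02, 1.04 and 1.06 FPKM, with a log2 fold change of −1.03 (standard error 0.16, adjusted p = 0.0280). The adjusted call of TRAPPC6A was lost with any 1 library left out (adjusted p = 0.0615 to 0.117), after the GC correction (0.0501) and with no filter (0.0620). Those of DENND5B and TRAPPC12 were kept only without GapNC 1 (0.0245 and 0.0340), with values up to 0.0808 and 0.110 without each of the others, and TRAPPC12 also missed the threshold with no filter (0.0504). A pseudocount of 1 brought TRAPPC6A to −0.93 and TRAPPC12 to −0.66. The other 3 exchange factors called lower were DENND3, RIC1 and, in a row joined with SYCE1L, MON1B.

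Effectors held 5 adjusted calls lower and 2 higher of 46 tested (10.9% against 5.1% of all loci lower, and 4.35% against 1.89% higher). MICAL3, a RAB8 effector that oxidizes actin, was at 3.13, 2.84 and 2.32 FPKM in GapNC and 1.30, 1.14 and 1.18 FPKM in the libraries labelled GapC9 (log2 fold change −1.12, standard error 0.15, adjusted p = 0.0211). MICALL2, an effector of RAB13 at junctions, was at 2.54, 1.90 and 1.90 FPKM against 1.15, 0.876 and 0.778 FPKM (log2 fold change −1.10, standard error 0.20, adjusted p = 0.0355). Neither showed any overlap of the groups. RAB11FIP3, which binds RAB11 at the recycling endosome and in cell division, was at 6.15, 6.14 and 7.63 FPKM against 4.12, 2.93 and 2.39 FPKM, also without overlap, with a log2 fold change of −1.08 (standard error 0.22, adjusted p = 0.0453). FYCO1, a kinesin adaptor that binds RAB7, and RUFY1, which binds RAB4 and RAB14, were also lower (log2 fold changes −0.89 and −0.80). APPL2, an adaptor that binds RAB5, and OPTN, an autophagy receptor that binds RAB8, were higher (0.72 and 0.62). The calls of RAB11FIP3 and MICALL2 were lost with any 1 library left out (adjusted p = 0.0642 to 0.151 and 0.0664 to 0.129) and with no filter (0.0776 and 0.0663). That of RAB11FIP3 was also lost under median scaling (0.0631), quantile normalization (0.0614), limma without trend (0.0550) and the GC correction (0.0697). MICAL3 was past the threshold without GapNC 1 or GapNC 3 and over it without any 1 of the other 4 libraries. With a pseudocount of 1 the log2 fold change of MICALL2 was −0.68. RAB11FIP5, joined with SFXN5, passed the ratio rule only (ratio 0.459, adjusted p = 0.0550).

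GTPase-activating and TBC domain proteins held 5 adjusted calls of 39 tested, all lower (12.8%, against 5.1% of all loci), namely TBC1D30, SGSM2, TBC1D1, TBC1D16 and TBC1D5. TBC1D30, known to act on RAB8 at the cilium, was at 4.44, 4.54 and 4.73 FPKM in GapNC and 2.14, 2.14 and 2.10 FPKM in the libraries labelled GapC9. The replicates differed far less than the groups, and the log2 fold change was −1.07 with a standard error of 0.10 (adjusted p = 0.0149). The call was kept without GapNC 1 or GapNC 3 and lost without GapNC 2 (0.0571) or any 1 of the libraries labelled GapC9 (0.0577 to 0.0706). For TBC1D1, which acts on the RABs of glucose transporter traffic, the log2 fold change was −0.48. The 7 carriers and prenylation factors tested had 0 adjusted calls and 0 with an unadjusted p under 0.05, by limma, with a median log2 fold change of −0.11. Of the 6 RAB-like GTPases tested, 0 passed at an adjusted p under 0.05 and 1 at an unadjusted p under 0.05, RABL2B, which was lower by the ratio rule (ratio 0.473, adjusted p = 0.0541).

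Promoters of RAB genes, taken as the 250 bases before the start listed by RefSeq on GRCh38.p14, were rich in G and C. The 60 RAB genes matched 68 promoters of 47 genes. Their median GC content was 64% with 18 CpG dinucleotides, against 58% and 11 over all 35116 promoters. The GC box GGGCGG was present on either strand in 49 RAB promoters (72.1%) and in 42.6% of all promoters. The CCAAT box (CCAAT) was in 20 RAB promoters (29.4% against 32.0%), the E-box CACGTG in 5 (7.35% against 6.35%) and the TATA box (TATAAA) in 5 (7.35% against 10.7%). The RAB11A and RAB3A promoters held 3 GC boxes each, and of the 3 promoters listed for RAB30 none held a GC box and 2 held a CCAAT box. A match describes the letters in the window and not binding.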

How the data were processed

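The 6 libraries (GapNC and GapC9, replicates 1 to 3, as the sample titles name them) were analysed from 1 table. The authors purified poly(A) RNA, sequenced paired-end libraries, aligned with HISAT and deposited FPKM values from StringTie; the submitters' processing notes list HISAT2 2.0, StringTie 1.3.0, Bowtie 0.12.2 and the build mm8, a mouse build that cannot describe this table. The table's build and its use of strand are not given in the sources used here, and coordinates come from GENCODE v29 on GRCh38. The study's methods give harvest at 48 h and its results text 24 h. StringTie can join neighboring genes and list a locus at 0 in 1 library. The authors' edgeR test was not rerun, since the table holds no counts. No per-sample column was left unused.

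In R 4.3.3, limma 3.58.1 with a mean-variance trend was fitted to log2(FPKM + 0.1) of the 16028 loci averaging 0.1 FPKM or more, with Benjamini-Hochberg adjustment over all of them. Fold changes are therefore on the log2(FPKM + 0.1) scale and understate changes of low genes. Python 3.11.15, pandas 2.3.3 and Biopython 1.88 handled annotation and sequences. Without counts, depth sets the precision only in outline. The members, roles and machinery lists were chosen with earlier results of these data known. Full values are given for RAB loci past a threshold, the 12 with the highest mean, the 2 highest of each role and those tested with a library at 0, and for at most 8 machinery loci by size of fold change. Alternatives covered pseudocounts (1 and 0.01), filters, scaling, variance models, a replicate block, a GC correction, the fitted fold and each library left out; leaving out joined and pseudogene loci was added after seeing the data.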

Additional observations from a re-analysis of the deposited data

How the results depend on the processing

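For 26 named RAB loci and 8 machinery loci, 453 of 573 alternative fits kept the direction and the side of the adjusted threshold. Of the others, 72 kept only the direction, 0 gained an adjusted call and 48 turned direction. Most of these loci had no adjusted call and counted as kept when they stayed uncalled, so all 72 lost calls fell on called loci. RAB11A and RAB36 each kept the adjusted call in 11 of 17 alternatives, and RAB3A in 9. Among the named machinery loci with an adjusted call, it was kept in 5 (RAB11FIP3) to 12 (MICAL3 and TBC1D30) of 17. No called RAB locus turned direction. With a minimum of 1 FPKM, 1 RAB locus was higher by ratio. With no filter, 1 RAB locus was lower at an adjusted p under 0.05, and of the machinery 1 was higher and 4 lower. Median scaling and quantile normalization each left 0 RAB loci lower by ratio, 10 machinery loci lower at an adjusted p under 0.05 and 4 lower by ratio, with RAB medians of 0.0053 and −0.032. Without the variance trend 1 machinery locus was higher and 11 were lower at an adjusted p under 0.05, against 2 and 16 in the main fit. The GC correction left 0 RAB loci lower by ratio and gave 3 higher, with RAB34 added (log2 fold change 0.77, limma unadjusted p = 0.0357). It gave 4 machinery loci higher at an adjusted p under 0.05 and 2 lower by ratio, and a RAB median of −0.054. The cause was not tested. Counts under the alternatives are given without the share of all loci called under the same setting.

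With a replicate block the adjusted calls were 0 higher and 0 lower for RAB loci and likewise 0 and 0 for the machinery, and the ratio calls were 2 and 1 for RAB loci. Over all loci tested, same-numbered libraries deviated together by correlations of 0.097, 0.040 and 0.024. Such correlations cannot show whether same-numbered libraries shared a culture or a batch. With 1 library left out, RAB loci at an adjusted p under 0.05 were 0 to 1 higher and 0 to 1 lower, and by ratio 1 to 2 higher and 1 to 3 lower, where RAB26, RAB27B, RAB35 and RAB37 (lower) and RAB34 (higher) passed the ratio rule in some of these fits only. Machinery loci were 0 to 2 higher and 0 to 10 lower, and by ratio 0 to 1 higher and 6 to 11 lower. The RAB median ran from −0.19 to −0.053.

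Log2 fold changes that turned direction were, under median scaling, RAB1B 0.0012, RAB5C 0.076, RAB11B 0.049, RAB8A 0.081, RAB12 0.12, RAB5A 0.092, RAB3B 0.020, RAB28 0.048 and RAB3D 0.053. Under quantile normalization they were RAB12 0.039, RAB5A 0.0059, RAB28 0.034 and RAB3D 0.043. After the GC correction they were RAB1B 0.13, RAB5C 0.15, RAB11B 0.18, RAB8A 0.12, RAB23 −0.027, RAB3D 0.12, RAB40C 0.014 and RAB43P1 0.18. With 1 library left out the ranges were −0.42 to 0.29 for RAB7A, −0.37 to 0.56 for RAB10, −0.12 to 0.017 for RAB5C, −0.069 to 0.58 for RAB2A, −0.16 to 0.038 for RAB8A, −0.43 to 0.30 for RAB12, −0.14 to 0.22 for RAB13, −0.27 to 0.29 for RAB5A, −1.23 to 0.069 for RAB9A, −0.38 to 0.12 for RAB28, −0.0099 to 0.22 for RAB23, −0.17 to 0.0050 for RAB3D, −0.86 to 0.47 for RAB40C, −1.34 to 1.08 for RAB43P1 and −0.33 to 0.62 for RAB39A.

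CASC9 was at or near 0 in every library. RAB34, RAB41 and RAB39A, with means of 0.106 to 0.170 FPKM, lay nearest to the filter.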
